A study of Homo sapiens with 13 samples.

Results

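The replication-dependent histone genes encode the H1, H2A, H2B, H3 and H4 proteins that package newly copied DNA. They were chosen by symbol, as every gene whose name starts with HIST1H, HIST2H, HIST3H or HIST4H. This gave 70 genes over both deposited tables, 67 of the 24875 gene symbols in the Silvestrol table and 54 of the 13121 in the INK128 table, and 51 were in both. By class there were 6 genes for H1, 16 for H2A, 20 for H2B, 14 for H3 and 14 for H4. Of these, HIST2H2BA and HIST2H2BC carry pseudogene names in current annotation.

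The cells were MDA-MB-231, an established human triple-negative breast cancer line with no transgene or knockout. In the Silvestrol experiment, ribosome footprints (RFs, the short RNA pieces that a translating ribosome protects) were sequenced from untreated cells and after 1 h or 2 h with 25 nM Silvestrol or with its solvent DMSO. Silvestrol inhibits eIF4A, the RNA helicase that unwinds 5′ UTRs for the scanning ribosome. The 2 h treatments were done at passage 3 and at passage 4, and these were the 2 replicates. All other groups had 1 library, among them the DMSO and Silvestrol mRNA libraries of passage 3 at 2 h, which the study's methods describe as polyadenylated RNA. In the INK128 experiment, RFs and total RNA were sequenced after 2 h of DMSO or 200 nM INK128, an inhibitor of the kinase mTOR, with 1 library each. Labels conflicted for 2 libraries. The passage 3 Silvestrol RF library at 2 h is given as 1 h in its treatment field, and the DMSO mRNA library is called untreated in its treatment field, while its values carry no treatment name in the table. Both were used as their titles give them.

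Histone mRNAs of this kind are made in bulk during S phase and are the metazoan mRNAs that end without a poly(A) tail. Their 3′ end is a short stem-loop bound by SLBP, the stem-loop binding protein, which takes the place of the tail in processing, translation and decay. The genes lie in clusters and have no introns, their UTRs are short, and many copies are nearly identical in sequence. Their level in poly(A)-selected RNA is therefore not the level of the whole histone mRNA, and reads from identical stretches cannot be given to 1 gene.

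The stem-loop is shown first because it is the feature that sets these mRNAs apart from the others in the libraries. Of the 70 genes, 63 had a MANE Select transcript in the GENCODE annotation of GRCh37 (the hg19 build used by the authors), and 63 of these had a single exon. A histone stem-loop of 16 nt, with a loop of 4 nt, was found on the transcript's strand within 150 nt after the stop codon in 63 of 63, against 8 of 18859 other genes (0.0424%). It began 23 to 63 nt after the stop codon, with a median of 36 nt. The 63 genes carried 10 distinct sequences. The most frequent 4 are given 5′ to 3′ as DNA, with the loop in capitals and 1 member as an example.
HIST1H1C, chr6:26055972-26055987, minus strand, the form in 37 genes: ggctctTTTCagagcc
HIST1H2BK, chr6:27114145-27114160, minus strand, the form in 9 genes: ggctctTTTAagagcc
HIST1H4C, chr6:26104545-26104560, plus strand, the form in 8 genes: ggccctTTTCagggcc
HIST2H4A, chr1:149804596-149804611, plus strand, the form in 3 genes: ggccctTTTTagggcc
The arms differed by class, as the last pair of forms was found in H4 genes and the first pair in H1, H2A, H2B and H3 genes. The 5′ UTRs had a median of 37 nt (12 to 132 nt), against 136 nt in the other genes. The polyadenylation hexamer AATAAA was found in the last 50 nt of 3 members (HIST1H2BH, HIST1H4J and HIST2H2BE) and of 65.4% of the other genes.

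The RF libraries held 2652423 to 31188148 counted reads, the mRNA libraries 50315607 with DMSO and 24792922 with Silvestrol, and the shallowest was Silvestrol at 2 h of passage 4. Of the markers of the line, VIM (4789 to 7031 RPKM over the RF libraries), CD44, EGFR, KRT18 and CAV1 were present in each RF library. ESR1 was at 0, PGR and CDH1 stayed at or under 0.0419 and 0.108 RPKM, and ERBB2 was at 1.63 to 4.05 RPKM. KRT8 was listed at 0 in the DMSO mRNA library and at 0 to 22.3 RPKM in RFs.

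Histone genes took a larger share of RFs than of poly(A) mRNA, and their share of RFs was larger in every Silvestrol library than in its DMSO library. In DMSO at 2 h they held 1.292% of RF reads at passage 3 (95% Wilson interval 1.288 to 1.297%) and 1.294% at passage 4 (1.285 to 1.303%). With Silvestrol at 2 h they held 1.866% (1.858 to 1.873%) and 2.103% (2.086 to 2.120%). At 1 h the share was 1.195% in DMSO (1.192 to 1.199%) and 1.696% in Silvestrol (1.691 to 1.702%), and in untreated cells it was 1.461% (1.456 to 1.465%). Of poly(A) mRNA reads they took 0.0634% in DMSO (0.0627 to 0.0641%) and 0.0612% in Silvestrol (0.0603 to 0.0622%). These intervals cover counting error only. In bulk libraries, a change in the number of cells in S phase and a change in histone RNA per cell cannot be told apart.

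Reads were spread unevenly over the members. Of the 67 genes in the Silvestrol table, 15 had 0 reads in the 9 libraries, 13 had 1 to 10 reads in total and 39 had more. The linker histone genes HIST1H1C and HIST1H1E led in reads, and H1 genes held 53.0% of the members' RF reads in DMSO at passage 3, followed by H4 with 21.0%, H3 with 16.5%, H2A with 7.02% and H2B with 2.44%. These shares are not corrected for how much of each gene could be counted. The authors left positions out of the RPKM value where a read aligned to more than 1 place, and the counted length behind each value (reads over RPKM, scaled by the library total) ranged from 24.2 to 780 nt with a median of 117 nt in the 24 members with an RF RPKM of at least 1. It was under 100 nt in 9 of them and under 50 nt in 4. HIST1H1C had a counted length of 582 nt beside a coding sequence of 642 nt, HIST1H1E 646 beside 660 nt and HIST1H2BA 382 beside 384 nt. HIST1H2BO had 24.2 beside 381 nt and HIST1H2AH 29.6 beside 387 nt. The counted length can pass the coding length, as in HIST1H1T (780 beside 624 nt), so it is not a share of the coding sequence. A further 9 members had over 10 RF reads but a blank RPKM in DMSO at 2 h of passage 3, the library of these lengths. HIST1H2AG and HIST1H2BN, which are among these, had an RPKM at passage 4, each from 22.1 counted nt. HIST1H2BK, an H2B gene, had 0 RF reads in every library beside 1124 reads in DMSO mRNA. In the deepest RF library a count of 0 allows up to 0.0962 RPM (reads scaled to the library total), but only over the positions that could be counted.

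**Figure D1:**
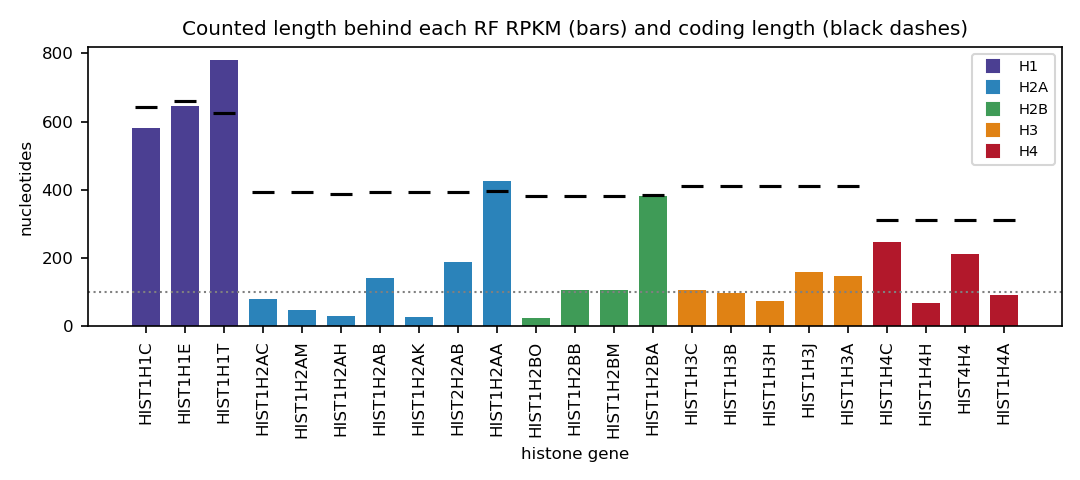
Counted length in nucleotides behind each RF RPKM in DMSO at 2 h, passage 3 (bars, coloured by histone class), and the annotated coding length (black dashes), for members with an RPKM of at least 1 and an annotated transcript. The dotted line marks 100 nt. The bars of HIST1H1C (582 nt), HIST1H1E (646 nt) and HIST1H2BA (382 nt) are near the coding length in height, and that of HIST1H2BO stops at 24.2 nt.

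In the INK128 table more members had a level, and 47 of 54 had an RF FPKM of at least 100 in DMSO. Of the members with at most 10 reads in the Silvestrol table, 9 had an RF FPKM of at least 100 there, and 4 of these had 0 reads in the Silvestrol table. The H4 gene HIST2H4A, for example, was at 0 reads in 9 libraries and at 2253 FPKM in the DMSO RF library. The tables were made separately, and how reads from identical copies were treated in the INK128 table is not given in the sources used here, so levels were not compared between tables and FPKM values of near-identical members are uncertain. Some loci listed with the FPKM values run past the annotated single-exon transcript. Examples are HIST1H2BD (chr6:26158348-26171576), HIST1H2BK (chr6:27106071-27114637) and HIST2H2BF (chr1:149754244-149783928). The part of longer transcripts in their values was not tested.

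By RF RPKM in DMSO, a level that is not divided by RNA, several histone genes were among the highest of all genes. HIST1H3C, an H3 gene, had the highest RF RPKM of the members at both passages, with 8746 at passage 3 and 8993 at passage 4. HIST1H3B followed at passage 3 with 6705 RPKM and had 5453 RPKM at passage 4. The counted lengths of HIST1H3C and HIST1H3B at passage 3 were 105 and 95.6 nt. HIST1H1C had 5889 and 5163 RPKM, HIST1H4B 5804 and 6203 RPKM, and HIST1H4C 5746 and 4340 RPKM. HIST1H4B was below HIST1H3B and HIST1H1C at passage 3 and above both at passage 4, while HIST1H3B, HIST1H1C and HIST1H4C kept their order. At passage 3 HIST1H3C stood at percentile 99.99 of genes with an RF RPKM above 0, and at percentile 95.3 by poly(A) mRNA RPKM. The genes known for expression in testis were lower, with HIST1H2BA at 212 and 178 RPKM, HIST1H2AA at 35.8 and 25.2 RPKM and the linker histone HIST1H1T at 2.11 and 2.23 RPKM. Of the 67 members, 24 had an RF RPKM of at least 1 at passage 3, 22 of at least 100 and 15 of at least 1000.

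**Figure D2:**
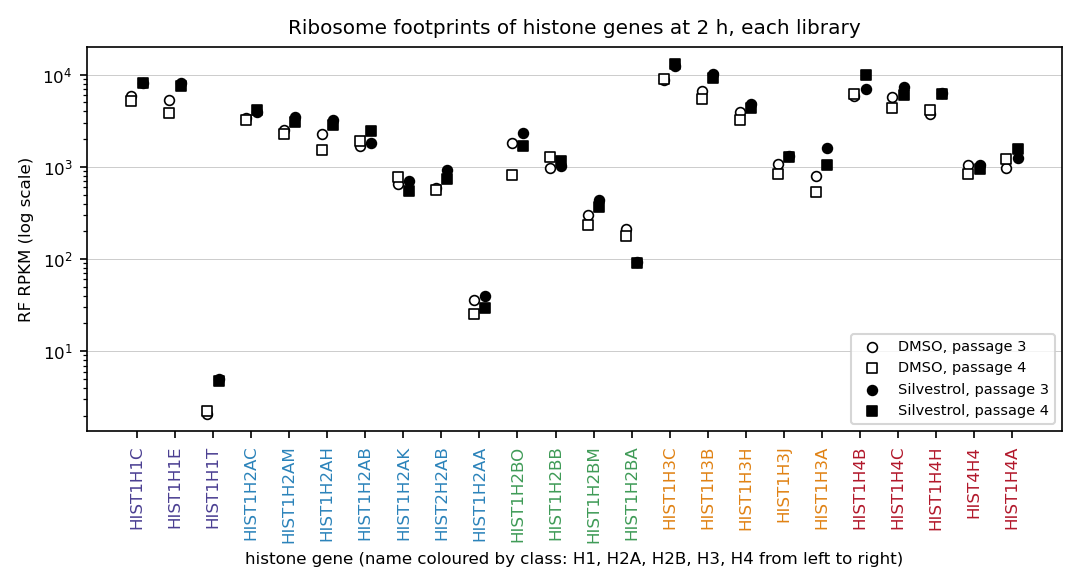
RF RPKM (log scale) of the 24 members with an RPKM of at least 1 in DMSO at 2 h, passage 3, with 1 point for each of the 4 libraries. Open points are DMSO, filled points Silvestrol, circles passage 3 and squares passage 4. Filled points lie above open points for HIST1H1C, HIST1H1E and HIST1H3A, and below them for HIST1H2BA.

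The ratio of RFs to RNA (translational efficiency, TE) is given against poly(A) mRNA and against total RNA, which come from different experiments and tables, so the RNA type and the way the values were made cannot be told apart. Against poly(A) mRNA in DMSO, the RF to mRNA RPKM ratio had a median of 56.0 over the 23 members with a value (10.0 to 718), against 1.84 over 10516 genes. All 23 lay in the highest 5% of genes and 22 in the highest 1%. Against total RNA in the INK128 experiment, the RF to total RNA FPKM ratio had a median of 17.4 over 52 members and 14.7 over 7102 genes. There 38 of 52 members lay above the median of all genes, 7 were in the highest 5%, and the members' median percentile was 60.2, beside 99.8 for the ratio to poly(A) mRNA. HIST1H1C had a ratio of 40.7 to poly(A) mRNA (percentile 99.7) and of 16.3 to total RNA (percentile 56.2). HIST1H4C had 64.1 (percentile 99.9) and 16.6 (percentile 57.4). The highest poly(A) ratio, 718 in HIST1H3H, came with a counted length of 74.1 nt in RFs and of 2246 nt in mRNA, longer than the annotated coding sequence of 411 nt.

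**Figure D3:**
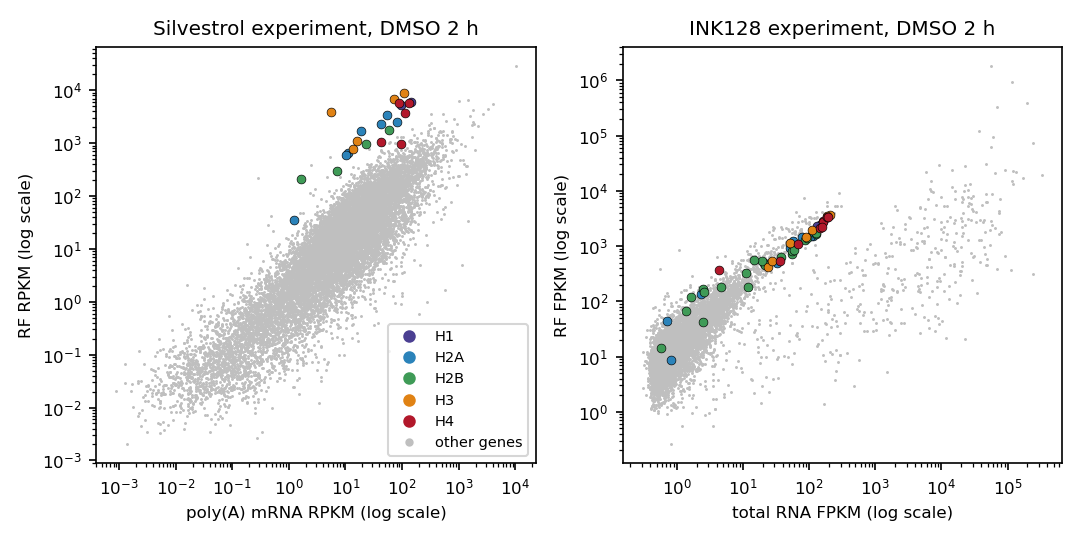
RF level against RNA level in DMSO at 2 h, both on log scales, as RPKM against poly(A) mRNA in the Silvestrol experiment (left) and as FPKM against total RNA in the INK128 experiment (right). Histone genes are coloured by class and other genes are grey. The histone genes stand along the upper edge of the left cloud (median ratio 56.0 against 1.84) and inside the right cloud (17.4 against 14.7).

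The comparison of Silvestrol with DMSO at 2 h asks which genes change in RFs when eIF4A is inhibited. Most histone genes with enough reads had a log2 change in RFs above 0, 3 passed the test as higher (HIST1H1C, HIST1H1E and HIST1H3A) and 1 passed it as lower (HIST1H2BA). Of the 67 members 32 passed the filter on low counts, 29 of them with at least 10 reads in each library. Of these 32, 28 had a log2 change above 0, and the median was 0.62 against -0.02 over the 11196 genes tested. By the quasi-likelihood test of edgeR, with p-values adjusted by Benjamini-Hochberg over the genes tested, higher calls were 1.54% of all genes and lower calls 5.96%. The labels give the passages as shared by DMSO and Silvestrol. A fit with passage as a blocking term gave 23 members higher and 1 lower, where 23.9% of all genes were higher and 26.7% lower. With 4 libraries, p-values of that fit rest mostly on spread shared across genes. In RPM, both Silvestrol libraries lay above both DMSO libraries for 18 of the 32 members, as they did for 23.8% of the genes tested. Without either of the Silvestrol libraries 0 members were called, and 0 of all genes. With an offset for the counted length of each gene in each library, HIST1H1C and HIST1H2BA stayed called, HIST1H1E (edgeR adjusted p = 0.051) and HIST1H3A (0.087) were not called, and HIST1H3B (0.047), HIST1H3C (0.032) and HIST1H4H (0.029) were called higher.

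HIST1H1C, which encodes linker histone H1.2, had 5889 and 5163 RPKM in DMSO and 8064 and 8083 RPKM in Silvestrol at passages 3 and 4. Both Silvestrol values were higher, with a log2 change of 0.67 (SE 0.096, edgeR adjusted p = 0.030). HIST1H1E, which encodes H1.4, had 5294 and 3818 RPKM in DMSO and 8196 and 7598 RPKM in Silvestrol. The groups did not overlap, and the log2 change was 0.89 (SE 0.175, edgeR adjusted p = 0.049, and 0.051 with the counted length offset). Untreated cells of passage 3 had 7776 RPKM for HIST1H1C and 7163 RPKM for HIST1H1E, nearer to the Silvestrol than to the DMSO values. HIST1H1T had 2.11 and 2.23 RPKM in DMSO and 4.997 and 4.774 RPKM in Silvestrol, from 10 to 50 reads a library, with a log2 change of 1.32 (SE 0.39) that missed the threshold (adjusted p = 0.10) and passed it with the passage block (adjusted p = 0.0037).

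Among H3 genes, HIST1H3A had 789 and 528 RPKM in DMSO and 1602 and 1058 RPKM in Silvestrol. Each Silvestrol value was about double that of its passage and the groups did not overlap, with a log2 change of 1.00 (SE 0.135, edgeR adjusted p = 0.028). With the counted length offset the log2 change was 1.08 (SE 0.30, edgeR adjusted p = 0.087) and the call was lost. HIST1H3C went from 8746 and 8993 RPKM to 12376 and 12908 RPKM, with a log2 change of 0.71 (SE 0.26, edgeR adjusted p = 0.15, and 0.032 with the offset), and HIST1H3B from 6705 and 5453 to 10285 and 9248 RPKM, with a log2 change of 0.74 (SE 0.18, edgeR adjusted p = 0.067, and 0.047 with the offset). HIST1H3H and HIST1H3J had log2 changes of 0.61 and 0.62. The 5 H3 genes tested ranged from 0.61 to 1.00, and each was called higher with the passage block, where 23.9% of all genes were. DESeq2 without the block called HIST1H3A (adjusted p = 3.4e-05), HIST1H3B (0.0066), HIST1H3C (0.048) and HIST1H3H (0.0091), beside 628 of 11196 genes higher.

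The 5 H4 genes tested ranged from 0.24 to 0.87 with a median of 0.51. HIST1H4C had 5746 and 4340 RPKM in DMSO and 7413 and 5952 RPKM in Silvestrol, a log2 change of 0.50 (SE 0.16, adjusted p = 0.11). The DMSO value at passage 3 and the Silvestrol value at passage 4 were close, so the difference was clearer within a passage than between groups. HIST1H4B, HIST1H4H and HIST1H4A had log2 changes of 0.60, 0.87 and 0.51. HIST4H4, on chromosome 12, changed least, from 1044 and 835 to 1047 and 957 RPKM (log2 change 0.24). Without the block or the offset edgeR called 0 of the 5 and DESeq2 called HIST1H4H (adjusted p = 0.032), beside 628 of 11196 genes higher. With the block edgeR called each of the 5 higher, where 23.9% of all genes were.

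The H2A and H2B genes ranged more widely. Of 10 H2A genes tested 8 had a log2 change above 0, with a median of 0.33. Without the block edgeR called 0 higher (1.54% of all genes). DESeq2 without the block called HIST1H2AH, HIST1H2AM and HIST2H2AB, beside 628 of 11196 genes higher. With the block edgeR called 6 higher, where 23.9% of all genes were. HIST1H2AC, with the most H2A reads, had 3428 and 3206 RPKM in DMSO and 3909 and 4093 RPKM in Silvestrol, with a log2 change of 0.33 (SE 0.21, edgeR adjusted p = 0.36, and 0.0023 with the block). HIST1H2AH had 2271 and 1535 against 3211 and 2828 RPKM, a log2 change of 0.84 (SE 0.28, edgeR adjusted p = 0.13, and 2.8e-11 with the block), from a counted length of 29.6 nt. HIST1H2AB, HIST1H2AM and HIST2H2AB had log2 changes of 0.32, 0.63 and 0.64. Of 9 H2B genes tested 7 were above 0 and 4 were called higher with the block, where 23.9% of all genes were. HIST1H2BB, with the most H2B reads, had 979 and 1273 RPKM in DMSO and 1030 and 1156 RPKM in Silvestrol, and the groups overlapped (log2 change 0.12, SE 0.25). HIST1H2BM had 297 and 233 RPKM against 440 and 366 RPKM (log2 change 0.81, SE 0.18, edgeR adjusted p = 0.061, and 2.7e-07 with the block). HIST1H2BO had a log2 change of 0.86 (edgeR adjusted p = 0.12, and 1.0e-07 with the block). HIST1H2BJ had a log2 change of 0.18 and no RF RPKM. DESeq2 without the block called HIST1H2BM (adjusted p = 0.012) and HIST1H2BO (0.036) higher.

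HIST1H2BA, which encodes the testis H2B, was the 1 member called lower, and with RLE scaling 0 were. It had 212 and 178 RPKM in DMSO and 92.55 and 89.97 RPKM in Silvestrol, from 2127 and 450 against 463 and 103 reads. Both Silvestrol values were below both DMSO values, with a log2 change of -0.90 (SE 0.17, edgeR adjusted p = 0.047). Its counted length was 382 nt beside a coding sequence of 384 nt. HIST1H2BA had the longest annotated 5′ UTR of the members, 132 nt, followed by HIST1H2BN with 93 nt, whose log2 change was 1.17 (SE 0.45). HIST1H2AA, its divergent neighbour, starts 215 nt away on the other strand and has a 5′ UTR of 35 nt. It had 35.8 and 25.2 RPKM in DMSO and 39.8 and 29.3 RPKM in Silvestrol, a log2 change of 0.33 (SE 0.31).

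**Figure D4:**
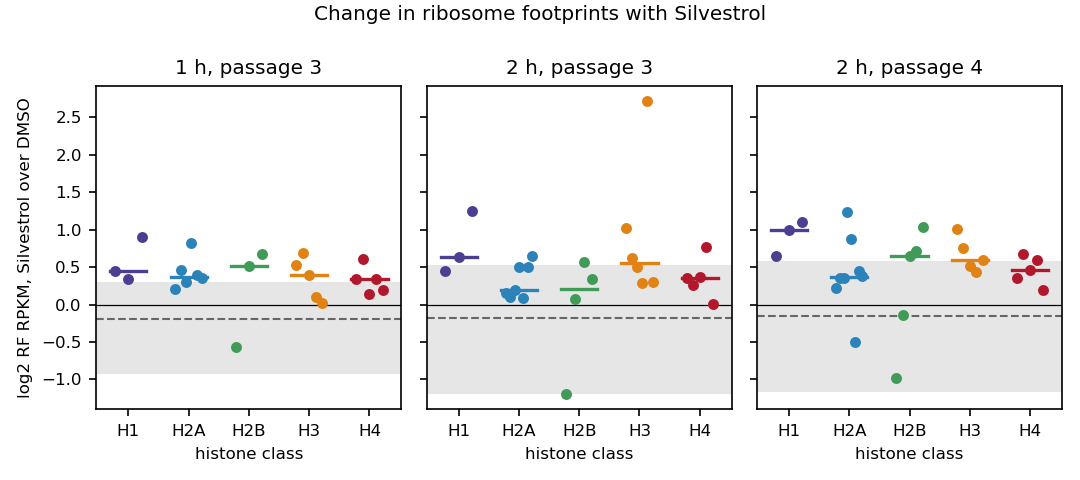
log2 change in RF RPKM, Silvestrol over DMSO, for each member by histone class at 1 h, at 2 h of passage 3 and at 2 h of passage 4. Points are genes with a mean RPKM of at least 1 and a value above 0 in both libraries, coloured bars are class medians, the dashed line is the median of all genes (-0.19, -0.17 and -0.15) and the grey band spans their 10th to 90th percentiles. Most members lie above the dashed line, HIST1H2BA is the low H2B point in each panel, and the H3 point at 2.72 is HIST1H3I, with 1 and 3 reads.

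At 1 h, with 1 library per treatment, most members also had higher RF values with Silvestrol than with DMSO. Of 22 members with a mean RPKM of at least 1, 21 had a log2 RPKM change above 0 and the median was 0.37, against -0.19 over 10580 genes. HIST1H1C went from 5739 to 7856 RPKM, HIST1H1E from 5319 to 6714, HIST1H3B from 6200 to 9957 and HIST1H4C from 5289 to 5854. HIST1H2BA was again the exception, from 194 to 131 RPKM. None of these 22 reached 2-fold in RPKM. Of the 10580 genes, 34 did so upward (0.321%) and 856 downward. In RPM, HIST1H2AH went from 33.9 to 98.0, with a counted length of 21.4 and 35.0 nt, and of the members without an RPKM HIST1H2BJ went from 18.3 to 62.2 and HIST1H2AG from 9.97 to 3.98. In an edgeR model of the 7 RF libraries, which assumes that the lone 1 h libraries vary like the others, none of 33 members tested passed (0.0% of 12226 genes). The spread came from the 2 h libraries of passages 3 and 4 without a term for passage, and a fit with one was not run. There 6 members were higher at an unadjusted p under 0.05, beside 285 of all genes. The lowest adjusted p of a member was 0.44. In untreated cells HIST1H1C had 7776 RPKM and HIST1H1E 7163 RPKM, each above its level in the 3 DMSO libraries. Against untreated cells, HIST1H1E was lower with Silvestrol at 1 h (6714 RPKM) and HIST1H1C was near level (7856 RPKM), and the median log2 change of the members tested in edgeR was 0.32 in place of 0.49. Summed over H1 genes, RPM values in untreated cells were 1.26 times those of DMSO at 2 h, passage 3, whereas the ratio was 0.907 for H2A, 1.05 for H2B, 1.04 for H3 and 0.968 for H4.

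Poly(A) mRNA did not rise with the RFs in most members, as 32 of 37 with a mean of at least 0.3 RPKM had a log2 change below 0. Over these 37 members the median log2 change was -0.45, against 0.05 over 13161 genes. By RPM, over the 36 members with at least 20 reads in DMSO, it was -0.26. In these libraries 0 of 37 members rose past 2-fold (6.24% of all genes) and 3 fell past it (2.7%), namely HIST1H4K, HIST1H4J and HIST2H3D with 49, 46 and 6 reads in DMSO. Their counted length was larger in the Silvestrol library, from 40.3 to 76.1 nt in HIST1H4K, from 42.8 to 77.4 nt in HIST1H4J and from 35.2 to 101 nt in HIST2H3D. In RPM the log2 change was -1.79 in HIST1H4K, -0.25 in HIST1H4J and 0.44 in HIST2H3D, so the direction turned in the last. HIST1H1C rose from 145 RPKM in DMSO to 173 RPKM in Silvestrol, and HIST1H1E had 94.6 and 91.6 RPKM. Summed over H1 genes, mRNA RPM values with Silvestrol were 1.16 times those with DMSO. HIST1H3C had 107 and 87.9 RPKM, and HIST1H4C had 89.7 and 91.3 RPKM. Larger falls with at least 100 reads in DMSO included HIST1H2AM (81.9 to 50.7 RPKM), HIST1H2BO (57.8 to 36.7), HIST1H2BB (22.8 to 13.9) and HIST1H4A (96.7 to 68.8). HIST1H2BK, with 0 RF reads, had 98.6 and 110.2 RPKM. Other H2A and H2B genes with at least 100 reads in DMSO mRNA but few countable RF positions are given in RPM, since their counted length in mRNA also differed between the libraries. HIST1H2AG had 17.1 and 14.3 RPM, HIST1H2BJ 16.9 and 12.5 RPM, HIST1H2BD 16.2 and 13.2 RPM, HIST1H2BC 5.33 and 4.44 RPM, HIST1H2BN 4.95 and 4.07 RPM, HIST1H2AK 2.48 and 1.77 RPM and HIST2H2BE 14.03 and 12.62 RPM. HIST1H2AJ had 2.76 and 2.74 RPM, close to level, and 26.1 and 18.7 RPKM over counted lengths of 106 and 147 nt. The values come from polyadenylated RNA, and there is no replicate of them.

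TE with Silvestrol compares these RFs with the poly(A) mRNA. The z-score of the log2 change in TE, taken over 10516 genes at passage 3, had a median of 1.10 over 23 members, and 22 of them were above 0. It was above 1.5 for HIST1H2AH (1.64), HIST1H3A (1.63) and HIST1H2AM (1.52), where 4.62% of all genes were, and below -1.5 for 0 members, where 6.52% of all genes were. HIST1H2AH and HIST1H2AM rest on 29.6 and 47.1 counted nt. Their single mRNA libraries fell, from 43.2 to 24.6 RPKM in HIST1H2AH and from 81.9 to 50.7 RPKM in HIST1H2AM. HIST1H3A had 13.4 and 11.0 RPKM in mRNA. With the RFs of passage 4 the median was 1.19 over 25 members, and HIST1H2AH and HIST1H3A were again above 1.5 (2.05 and 1.63), beside HIST1H2AG, HIST1H2BO and HIST1H2BN, which rest on 22.1, 35.1 and 22.1 counted nt in DMSO at passage 4. With no minimum level 0 members were above 1.5 at passage 3. HIST1H2BA was at -1.04 and -0.86. In the edgeR interaction test over 6 libraries, 0 of 37 members passed, where 0.0214% of 14027 genes did. At an unadjusted p under 0.05, 10 members were higher and 1 lower, beside 1005 and 1501 of all genes. DESeq2 called 5 members higher and 388 of all genes. With the passage as a block 23 members were called higher, where 17.2% of all genes were. Each mRNA arm is 1 library, so these tests take their spread from the RF libraries alone.

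With INK128, RFs of histone genes hardly moved. The median log2 change in RF FPKM over 54 members was -0.02 (-0.60 to 0.49), against 0.02 over 10843 genes. None moved past 2-fold, where 1.25% of all genes rose and 1.48% fell past it. HIST1H3C had 3509 FPKM in DMSO and 4058 in INK128, HIST1H1C 2383 and 2796, HIST1H4C 2707 and 2826, and HIST1H2BD 1639 and 1336. Each pair is 1 library against 1, without a test.

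Total RNA set the histone genes apart from most genes, though few small RNA genes (by symbol, such as SNORD and RNU genes) fell past 2-fold either. The FPKM of total RNA fell past 2-fold in 71.5% of 3172 genes and rose past it in 0.126%, and neither happened in any of the 48 members measured. Their median log2 change was -0.10 (-0.64 to 0.33), against -1.15 over all genes, so that with the median of all genes set to 0 it was 1.04. Each of the 48 lay between percentiles 84.8 and 98.3 of the genes. HIST1H3C had 188 FPKM in DMSO and 191 in INK128, HIST1H4C 163 and 168, HIST1H2BJ 128 and 130, and HIST1H2AC 114 and 113. HIST1H1C and HIST1H1E were lower with INK128, at 146 against 107 and at 130 against 90.7 FPKM. Small RNA genes took 99.4% and 99.7% of summed total RNA FPKM. Over 347 of them the median log2 change was 0.14, and 2.31% fell past 2-fold. For the 2777 genes that were in neither set the median was -1.18. Histone genes held 9.63% of the FPKM outside small RNA genes in DMSO and 15.6% in INK128. In RFs, small RNA genes took 88.8% and 92.2% of summed FPKM, and histone genes held 10.4% and 12.6% of the rest. The part of library composition in these values was not tested.

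**Figure D5:**
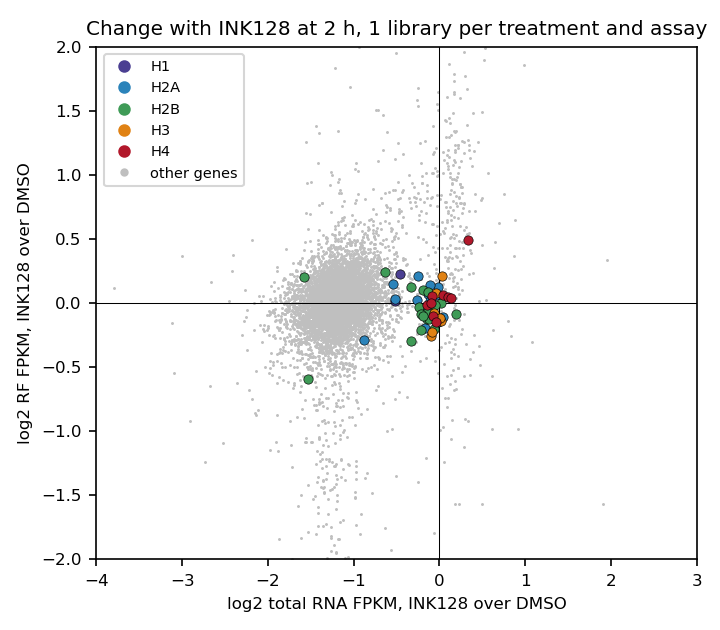
log2 change in RF FPKM against log2 change in total RNA FPKM, INK128 over DMSO at 2 h, for the 7102 genes with both values, of which 35 lie outside the axes. The 52 histone genes (coloured by class) stand mostly near 0 on both axes, beside a cloud of other genes (grey) that lies lower in total RNA.

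TE of the members with INK128 followed from these values. The log2 change in the RF to total RNA ratio had a median of 0.10 over 52 members and of 1.18 over 7102 genes, so the members' z-scores had a median of -1.999. The z-score was below -1.5 in 42 of the 52, where 5.58% of all genes were, and above 1.5 in 0, where 1.75% were. With a minimum mean of 5 FPKM, which leaves 906 genes and 41 members, 0 members were below -1.5 and the median was -0.56, and with a pseudocount of 0.5 there were 22. By class 0 of 2 H1 genes, 10 of 14 H2A genes, 16 of 20 H2B genes, 7 of 7 H3 genes and 9 of 9 H4 genes were below -1.5. HIST1H2BM was lowest at -2.74, with total RNA of 11.2 and 12.8 FPKM. HIST1H1C was at -0.85 and HIST1H1E at -1.15. HIST1H2BH was the 1 member above 0, at 1.30, from total RNA of 1.39 and 0.46 FPKM. HIST1H2BA, lower with Silvestrol, was at -1.61 and had 41.4 and 44.5 FPKM in RFs.

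Histone variants, whose production is not limited to S phase and whose mRNAs are mostly polyadenylated, had no common direction with Silvestrol. Of 10 tested at 2 h, 2 fell and 0 rose in the edgeR test, with a median log2 change of -0.20, and the passage block gave 1 higher and 4 lower, where 23.9% and 26.7% of all genes were. H1F0, the H1.0 linker histone of non-dividing cells, had 336 and 245 RPKM in DMSO and 60.0 and 69.6 RPKM in Silvestrol, and fell by 2.05 on the log2 scale (SE 0.22, adjusted p = 0.022). H2AFY, macroH2A1, had 359 and 375 against 86.6 and 87.2 RPKM and fell by 1.92 (SE 0.125, adjusted p = 0.021). H2AFX, the DNA damage variant, whose transcript also matched the stem-loop, had 1166 and 594 against 1910 and 1390 RPKM, a log2 change of 1.02 (SE 0.32, adjusted p = 0.11, and 7.3e-26 with the passage block). P-values with the block rest mostly on spread shared across genes. H2AFV (-0.72, adjusted p = 3.0e-06 with the passage block), H2AFZ (-0.05), H2AFJ (0.15), H3F3B (-0.11), H3F3C (-0.36, 0.027 with the block), H1FX (-0.07) and the centromeric H3 CENPA (-0.29) missed the threshold on this log2 scale. H2AFY2 was at 0 RPKM in DMSO. With INK128 the variants' total RNA changed by a median of -1.14 on the log2 scale, and 0 of 10 had a z-score below -1.5.

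Of 22 genes for histone mRNA 3′ ends, translation and decay, 0 rose and 1 fell in the edgeR test at 2 h, and the passage block gave 5 higher and 6 lower, shares close to the 23.9% and 26.7% of all genes. The 1 that fell was ERI1, the exonuclease that trims the stem-loop end, with 74.4 and 80.3 RPKM in DMSO and 29.4 and 31.0 RPKM in Silvestrol (log2 change -1.22, SE 0.144, adjusted p = 0.023). SLBP had 228 and 229 RPKM in DMSO and 222 and 273 RPKM in Silvestrol, and the groups overlapped (log2 change 0.26, SE 0.137, edgeR adjusted p = 0.28, and 0.025 with the passage block). NPAT, the activator of histone gene transcription, had 21.4 and 22.4 against 25.9 and 32.6 RPKM (log2 change 0.54, SE 0.143, edgeR adjusted p = 0.081, and 5.0e-06 with the block). LSM10 and LSM11, parts of the U7 particle that cuts histone pre-mRNA, had log2 changes of -0.65 (adjusted p = 0.23, and 0.0088 with the block) and 0.48 (adjusted p = 0.28). With INK128 the list's total RNA had a median log2 change of -1.30.

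Of 15 histone chaperone genes tested, 0 rose and 2 fell, beside 4 higher and 7 lower with the passage block, which called 23.9% of all genes higher and 26.7% lower. RBBP7, a histone-binding subunit of several chromatin complexes, had 607 and 666 RPKM in DMSO and 149.97 and 163.87 in Silvestrol, a log2 change of -1.87 (SE 0.116, adjusted p = 0.021). ASF1B, an H3-H4 chaperone of dividing cells, had 235 and 212 against 106 and 108 RPKM, a log2 change of -0.94 (SE 0.145, adjusted p = 0.033). Of 15 S phase genes 0 rose and 1 fell, beside 6 higher and 4 lower with the passage block, against the same shares of all genes. CDC6, the loader of the replicative helicase, had 112 and 129 against 52.4 and 63.2 RPKM and fell (log2 change -0.93, SE 0.139, adjusted p = 0.032). The median of the S phase list was 0.13 and that of the chaperones -0.02, beside 0.62 for the histone members tested. Total RNA of these lists had median log2 changes of -1.20 and -1.21 with INK128. The differences between the lists and the histone members were not tested.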

How the data were processed

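Values came from the 2 tables the authors deposited. Reads had been trimmed, freed of rRNA, and aligned with Bowtie to hg19 and UCSC canonical transcripts. The deposited counts are uniquely mapped reads per transcript, and the deposited RPKM values skip every position reached by non-unique reads or covered by several transcripts. The authors deposited FPKM values without counts for the INK128 experiment, and the program behind them is not given in the sources used here. Submitters' processing notes list CASAVA 1.8.1 and Bowtie2. Columns of the authors' own TE, log2 changes and scores were not used. No per-sample column was left out (0).

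The Silvestrol table had 38897 lines, of which 25758 were distinct, and repeated lines were dropped. For a symbol with several entries the one with the highest mean RF RPKM was kept. Symbols were matched to GENCODE version 44 on GRCh37 through RefSeq accessions (67 members) or older symbols (3). The members and lists were chosen with earlier results of these data known.

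For counts the test was edgeR 4.0.16 under R 4.3.3 (TMM, filterByExpr, glmQLFit and glmQLFTest, Benjamini-Hochberg adjustment over all genes, threshold 0.05). The TE test was the assay by treatment interaction. The edgeR median of all genes lay at -0.02, and that of RPKM ratios at -0.17 and -0.15 in the passages. DESeq2 1.42.0 was an alternative. z-scores used log2 ratios of RPKM or FPKM without a pseudocount, for genes above 0 in the 4 libraries with means of at least 1 (RF) and 0.3 (RNA; 1 for total RNA changes alone), with thresholds of -1.5 and 1.5. Comparisons with 1 library per group have no test, and changes past 2-fold were counted. Without the block, p-values measure the spread between 2 cultures, moderated across genes. With the block they rest mostly on spread shared across genes and do not measure that between cultures. In simulated counts with a log2 change of 2 set for 200 genes, 197 were called for RFs at 2 h with 12 others, 170 for TE with 9 others and 196 for RFs at 1 h with 5 others.

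Replicates 1 and 2 are passages 3 and 4, which the labels share between treatments. Across 11196 genes, the passage deviations in DMSO and in Silvestrol had r = 0.776, so the fit with the passage as a block is given beside a result where it changes the call. Members were named as the 5 with most RF reads at 2 h in each class, those past a test or a z-score threshold, and those with at least 100 mRNA reads. From the lists SLBP, NPAT, LSM10, LSM11, the variants and genes past the RF test were named. Members that show a range, an extreme or an exception were added after their values were seen. Python 3.11.15, pandas 2.3.3 and matplotlib 3.10.9 were used.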

Additional observations from a re-analysis of the deposited data

How the results depend on the processing

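The RF test at 2 h called 3 histone genes higher and 1 lower. DESeq2 called 12 higher (628 of 11196 genes), no filter on low counts 6 (294 of 14215 genes), the replicate block (passage) 23 (2674 of 11196), and the block with an offset for counted length, chosen after seeing the data, 22 (1846 of 11196). The counted length offset alone called 4 (138 of 11196), of which HIST1H1C was also called without it. Leaving out 1 library gave 0 to 4 higher and 0 to 1 lower. Without Silvestrol replicate 1 or replicate 2 there were 0 calls among all genes, and with RLE scaling 2 histone genes were higher, without HIST1H1E, and 0 lower. The TE test called 0 higher, DESeq2 5, the replicate block 23, and leaving out 1 library gave 0 to 16, with 5 without DMSO replicate 1 (501 of 13514 genes) and 16 without DMSO replicate 2 (850 of 14351 genes). TE z-scores above 1.5 with Silvestrol numbered 3, but 0 with no minimum, 1 with untreated RFs as control and 5 with the RFs of passage 4. With CPM 2 members were below -1.5. For INK128, 42 z-scores below -1.5 became 0 of 41 with a minimum of 5 (906 genes) and 22 with a pseudocount of 0.5, and median and MAD put 1 above 1.5. mRNA falls past 2-fold numbered 1 by CPM. With no minimum, 2 members fell past 2-fold in total RNA. Setting the median of all genes to 0 put 32 histone genes up past 2-fold in total RNA and turned their median from -0.10 to 1.04. The causes of the other changes were not tested. No block was fitted for RFs at 1 h. The 1 h libraries are of 1 passage, but that model takes its spread from the 2 h libraries of passages 3 and 4.

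Counted length and the number of libraries limit these values. Of the 67 members 35 did not reach the RF test at 2 h, and 9 of the 24 with an RF RPKM of at least 1 rest on under 100 nt. Passage 4 held 6446356 RF reads with DMSO and 2652423 with Silvestrol. mRNA and both INK128 assays have no replicates, the share of histone mRNA left out by poly(A) selection was not measured, and depth is unknown for the FPKM values.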

Other observations

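The 8 genes outside the members whose transcript matched the stem-loop included 3 histone genes under other symbols and the variant H2AX, which is H2AFX in the deposited tables. Over the 31 members tested that had an annotated 5′ UTR, the length of the 5′ UTR and the log2 change in RFs at 2 h had a Pearson correlation of -0.46 and a Spearman correlation of -0.31 as a description across genes. These genes share libraries and much of their sequence. Without HIST1H2BA the values were -0.16 and -0.23, so the first rests mostly on that gene. Total RNA of HIST1H1B, the H1.5 gene, was 0.05 FPKM in DMSO and 0.07 FPKM in INK128 beside 38.3 and 43.8 FPKM in RFs, and of HIST3H3, an H3 gene of testis, 0.15 and 0.21 FPKM beside 33.2 and 28.5 FPKM in RFs. Neither reached the minimum for a z-score.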
